A study of Mus musculus with 4 samples.

Results

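Luminal cells sorted as RFP+ from the ventral prostate (VP) of castrated mice were compared with RFP+ luminal cells of the intact VP, within the second of 3 adult runs of droplet-based scRNA-seq (10x Genomics, 3′ counting). The comparison holds 326 cells, 176 castrated and 150 intact, out of 6034 cells in the run and 19148 in the 4 libraries of the series. All mice carried P2-Runx1:RFP, a reporter in which RFP is made from the proximal P2 promoter of *Runx1*, on the ICR (CD-1) strain, and all were older than 8 weeks. Castrated mice had been without testes for more than 4 weeks, and no other agent or allele was named in the labels. Only EPCAM+ cells were sorted, and mice of a condition were pooled by lobe and RFP status before labelling with lipid-tagged MULTI-seq barcodes.

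Each condition in run 2 was therefore 1 pool of mice, and no test of castration can be made from it. Values are given for both pools, with intervals that cover counting error only, since UMIs collapse PCR copies but cells of 1 pool are not replicates. To show how far intact pools differ from each other, the intact VP RFP+ luminal cells of run 1 (68 cells) and run 3 (157 cells) are given beside them. These were separate experiments, and the castrated VP pool was present in run 2 only, so run and castration cannot be told apart in comparisons across runs. For run 3 the index listed for the VP RFP+ barcode is not the one in its listed oligo, so the identity of that pool is less sure, although *Sbp*, *Sbpl* and *Spink1*, products of the VP, took 52.7% of its UMIs. Cells were assigned by the barcode's name, and without run 3 the counts of genes outside all intact pools, given below for 3 pools, were 618 above and 549 below.

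The 2 conditions of run 2 shared 1 droplet reaction and were separated by their barcode oligos. The oligos are shown because every assignment to castrated or intact rests on their 8-base index, in capitals:
castrated VP RFP+: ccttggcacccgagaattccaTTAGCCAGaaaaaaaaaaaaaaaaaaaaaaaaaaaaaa
intact VP RFP+: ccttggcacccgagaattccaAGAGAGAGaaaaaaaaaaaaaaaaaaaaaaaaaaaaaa
A cell was assigned where its highest barcode was at least 3 times that barcode's median in the run and at least 2 times the next. Of 282 cells assigned to the castrated pool, 267 had an *Epcam* UMI, 259 of these had no *Ptprc* UMI, 254 of these held at least 5 *Krt8* and *Krt18* UMIs per 10,000, and 176 held under 3 *Krt5* and *Krt14* UMIs per 10,000. The same steps took the intact pool from 235 cells to 231, 223, 200 and 150. A further 159 castrated and 268 intact cells had that barcode highest without passing the limits. The members were thus chosen by the measured levels of these 6 genes and of the barcodes, whose values are description. The castrated cells nearest the limits held 8.19 and 4.93 keratin 8 and 18 UMIs per 10,000 inside and outside, and 2.46 and 3.15 keratin 5 and 14 UMIs. The intact cells nearest them held 5.26 and 4.89, and 2.60 and 3.82. The barcode ratios nearest the limit were 3.00 and 2.88 for castrated and 3.20 and 2.98 for intact cells. Both markers of the luminal label were present in nearly every cell: *Krt8* was detected in 99.4% and *Krt18* in 100% of castrated cells. These limits are shares of all UMIs, secretory transcripts included, and the keratin median was 36.3 per 10,000 in castrated cells and 12.4 in intact cells.

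VP luminal cells line the ducts and secrete proteins of the seminal fluid, and their size, secretory output and survival depend on androgen. After castration the gland regresses, most secretory cells are lost, and the cells that remain are called castration-resistant. RUNX1, a DNA-binding transcription factor, is made by a part of the luminal cells, and the reporter served to sort that part.

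Castrated cells held less RNA per cell by UMI count, with a median of 13291 UMIs, against 45254 in intact cells of run 2 and 55035 and 45350 in runs 1 and 3. Most of that gap lay in 3 secretory genes: without *Sbp*, *Sbpl* and *Spink1* the medians were 12879 in castrated cells and 22578, 19484 and 22352 in the intact pools of runs 1 to 3. The pools summed to 3651672 UMIs for castrated cells and 3670687, 7155685 and 7690961 for the intact pools. Mitochondrial transcripts took a median of 4.29% of UMIs in castrated cells and 2.15% to 3.02% in intact pools, and their part in the results below was not tested. No member shared its cell barcode with a cell of another library.

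Levels are given as scaled CPM, the counts-per-million unit after edgeR's TMM scaling over the 4 pools, which sets most genes level in spite of the secretory transcripts. Of 9936 genes with at least 20 UMIs in the 2 run 2 pools together, 912 (9.18%) were at least 2-fold higher in castrated cells and 840 (8.45%) at least 2-fold lower. Fewer lay outside all 3 intact pools: 465 genes (4.68%) were at least 2-fold above the highest of them and 424 (4.27%) at least 2-fold below the lowest. In all, 1752 genes differed 2-fold or more between castrated and intact cells of run 2, while 1006 did so between the intact pools of runs 1 and 2 and 582 between those of runs 3 and 2. Many single 2-fold differences are thus of a size that also separates intact pools, and genes outside all 3 are the stricter call. For gene lists, members called higher or lower are 2-fold calls within run 2, unless they are said to lie outside all intact pools. They are to be read beside the 9.18% and 8.45% of all genes.

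**Figure D1:**
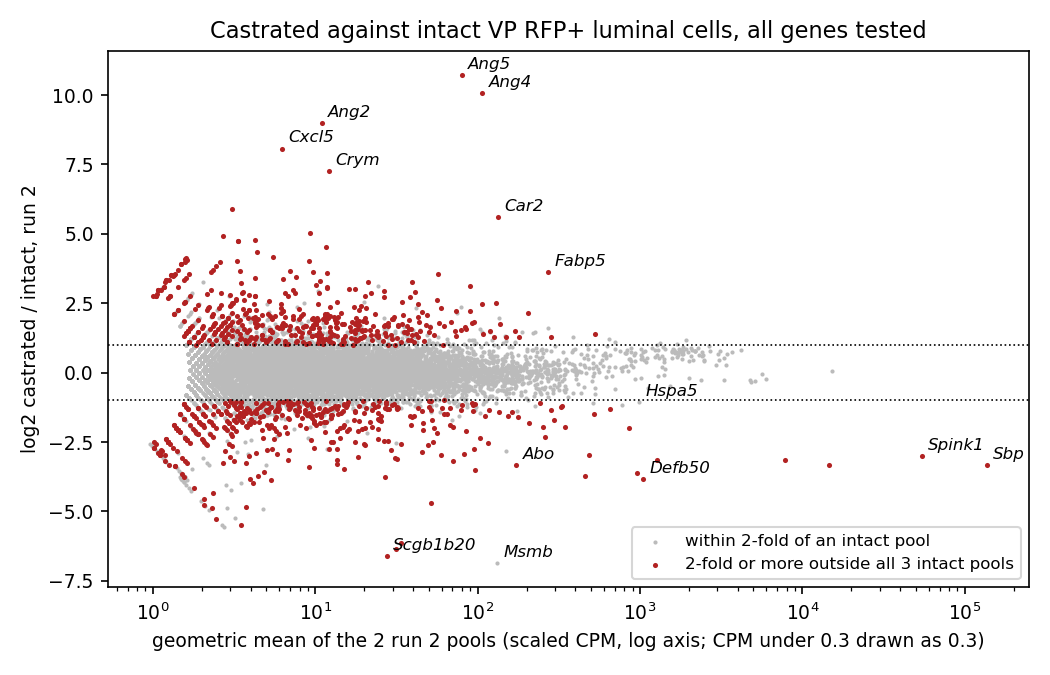
Log2 ratio of castrated to intact VP RFP+ luminal cells in run 2 (vertical axis) against the geometric mean of the 2 levels in scaled CPM (horizontal log axis) for the 9936 genes tested. Each point is 1 gene, red where castrated cells were at least 2-fold outside all 3 intact pools, and dotted lines mark 2-fold; the angiogenins *Ang4* and *Ang5* lie at the top, and *Sbp* and *Spink1* at the far right below the lower line.

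The secretory programme of the VP was the largest difference by amount of RNA. *Sbp*, which encodes the spermine-binding protein of VP secretion, stood at 43196 scaled CPM in castrated cells and at 499790, 437090 and 411590 in the intact pools of runs 1, 2 and 3. Its neighbour *Sbpl* stood at 4626 against 30510, 46248 and 33249. *Spink1*, a secreted trypsin inhibitor, stood at 19157 against 54462, 155420 and 220680. Castrated cells were below every intact pool for all 3 genes, by 10.1-fold for *Sbp* (95% counting interval of the ratio 0.0984 to 0.0992), 10.0-fold for *Sbpl* and 8.11-fold for *Spink1* within run 2. As plain shares, the 3 genes took 10.5% of castrated UMIs and 54.7%, 54.9% and 52.7% of UMIs in the intact pools.

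Those sums hide a split among the castrated cells. The 3 genes together had a median of 44.6 UMIs per 10,000 in castrated cells and of 5489 in intact cells of run 2 (5360 and 5253 in runs 1 and 3). Of the 176 castrated cells, 18 (10.2%, exact interval 6.17% to 15.7%) reached 1000 per 10,000, a level passed by 134 of 150 intact cells. These 18 cells carried 92.6% of the *Sbp*, 93.7% of the *Sbpl* and 96.4% of the *Spink1* UMIs of the castrated pool. Their highest barcode exceeded its median by 13.4 times at the median cell, against 19.8 times in the other 158, and their counts of the castrated and intact VP barcodes had medians of 107.5 and 51, against 158.5 and 42. The 2 barcodes differ in background: their medians over the run were 8 and 45. The 150 intact cells had medians of 8 and 865.5 in the same order. Whether they are castrated cells, droplets with more than 1 cell or cells with the wrong barcode was not tested.

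In most of the other 158 castrated cells the secretory transcripts, as a share of UMIs, lay in the range seen in blood cells of the run. Blood cells caught in the sort, defined as cells with at least 2 *Ptprc* UMIs and no *Epcam* UMI, should not make these transcripts. These 267 cells had a median of 38.1 per 10,000 (highest 183), and the 158 castrated cells a median of 41.5, at median depths of 6247 and 12861 UMIs. Of the 158, 41 exceeded the 95th percentile of the blood cells (80.6 per 10,000), as did 14 of the 267 blood cells themselves, and 12 exceeded the highest blood cell. The 2 genes were not in 1 ratio, however: there were 4.60 *Sbp* UMIs for each *Spink1* UMI in these castrated cells, 2.06 in the blood cells and 2.81 in intact VP cells. Median counts per cell were 40.5 *Sbp* and 11 *Spink1* UMIs in the castrated cells and 15 and 7 in the blood cells. The part of free RNA in these transcripts was not tested.

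**Figure D2:**
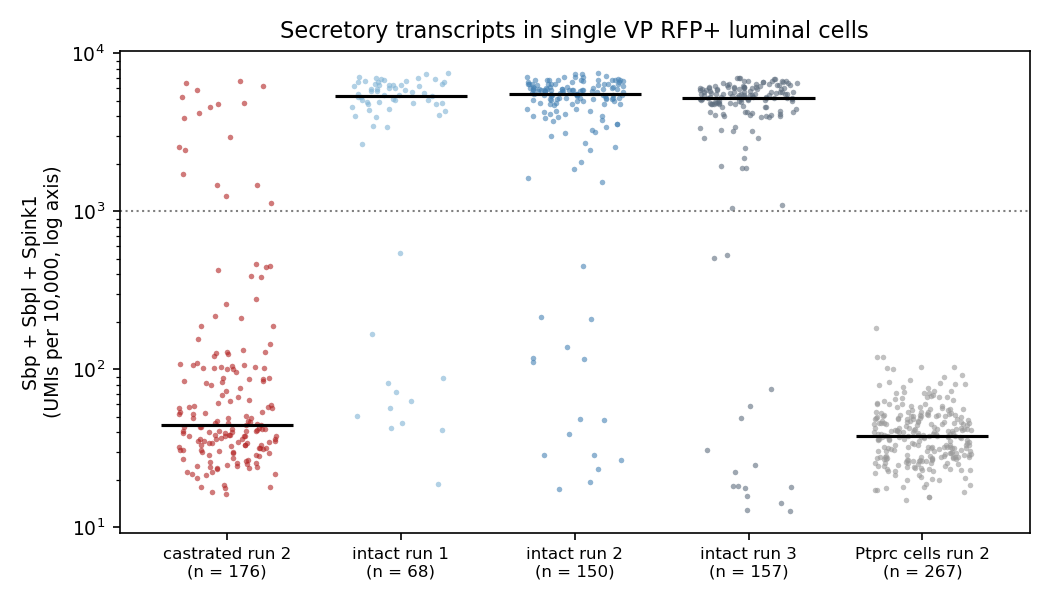
UMIs of *Sbp*, *Sbpl* and *Spink1* per 10,000 (vertical log axis) in single cells of the castrated pool, the 3 intact VP RFP+ pools and the 267 Ptprc-bearing cells of run 2 (horizontal axis, with cell numbers). Points are cells, black bars medians, and the dotted line marks 1000 per 10,000, above which lie 18 castrated and 134 intact run 2 cells.

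Many other VP products were lower too. Of 16 tested genes listed as VP secretory products, 10 were at least 2-fold lower, 9 of these below all intact pools, and 1 was higher, with a median log2 ratio of -3.25 against 0.02 over all genes tested. Leaving aside *Sbp*, *Sbpl* and *Spink1*, 7 of the other 13 were lower, 1 was higher and 5 differed by less than 2-fold, with a median of -3.17. *Defb50*, a beta-defensin, stood at 278 scaled CPM against 599, 3964 and 4059 in the intact pools. *Spink5*, a protease inhibitor, stood at 277 against 3322, 3363 and 5009. The androgen-binding protein genes *Scgb1b20*, *Scgb2b20* and *Scgb2b12*, secretoglobins that lie close together on chromosome 7, were 97.8-, 81.7- and 71.0-fold lower in run 2, with 16, 20 and 23 UMIs in the castrated pool. They were uneven among intact pools too, since *Scgb1b20* ranged from 30.0 to 488 scaled CPM, and they were seen in few cells (*Scgb2b12* in 1.70% of castrated and 21.3% of intact cells). *Scgb1b27*, another member, stood at 10.1 against 342, 263 and 248. Secretoglobin genes have close paralogs, and reads that map to more than 1 gene are not counted, so the split among them is uncertain. *Rnase1* was the exception in the list, at 135 scaled CPM against 22.7, 46.0 and 17.9.

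Outside that list, *Abo*, which encodes a blood-group glycosyltransferase, was found in far fewer castrated cells. It stood at 54.4 scaled CPM in castrated cells and at 634, 552 and 525 in the intact pools, and its UMIs were found in 14.2% of castrated and 94.7% of intact cells. Thinned to 4000 total UMIs per cell, of which secretory transcripts take the larger part in intact cells, the shares were 7.65% and 76.4%, with 3.00% in the Ptprc-bearing cells before thinning. Thinned intact cells therefore keep fewer UMIs of other genes, and *Gpx4*, level in scaled CPM, was then detected in 85.3% of castrated and 58.8% of intact cells. *Wfdc3*, of the whey acidic protein family, stood at 126 against 1009, 1667 and 2252. *Pdlim2*, an adaptor protein gene, stood at 7.32 against 89.1, 100.05 and 96.7, and the unnamed transcript *BB123696* at 28.4 against 390, 323 and 419. The 18 castrated cells of high secretory level carried 90.4% of the *Abo*, 78.6% of the *Pdlim2* and 94.5% of the *Spink5* UMIs of their pool. Without those 18 cells, 533 genes lay above and 526 below all intact pools.

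*Msmb*, a secreted prostate protein, differed widely between intact pools. It was at 12.2 scaled CPM in castrated cells and at 1415 in intact cells of run 2, the lowest log2 ratio of all named genes (-6.86), but the intact pools of runs 1 and 3 stood at 19.2 and 166. The castrated value was thus less than 2-fold below run 1. On the per-cell scale used above for secretory transcripts, *Msmb* had a median of 0.0773 in intact cells of run 2. Their 95th percentile was 1.45 and their highest cell 1245, so a few cells held most *Msmb* UMIs of that pool. Castrated cells had 0, 1.13 and 2.71 in the same order. *Msmb* also gave the lowest log2 ratio of the VP secretory list and was among its genes counted as lower. *Tgm4*, an anterior lobe product, stood at 431 against 295, 358 and 73.6, and *Pbsn* (probasin) at 303 against 221, 497 and 125, so *Pbsn* lay among the intact pools and *Tgm4* was higher than each of them, but within 2-fold of the highest. In both genes a few cells held most UMIs, 5 castrated cells giving 82.2% of *Tgm4* and 80.3% of *Pbsn*.

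Genes for folding and export of secreted proteins were lower as a group. Of 42 such genes, all tested, 13 were at least 2-fold lower and 0 higher, 6 lay below all intact pools, and the median log2 ratio was -0.73. No member was above a log2 ratio of -0.27. *Fkbp11*, a foldase of the endoplasmic reticulum, stood at 41.1 scaled CPM against 153, 175 and 125. *Herpud1*, which acts in the removal of misfolded proteins, stood at 165 against 458, 536 and 450. *Hspa5* (BiP), the main chaperone of the compartment, stood at 689 against 1122, 1427 and 1259, and *Ssr4* of the translocon at 517 against 1024, 1148 and 1076. *Sec61b*, of the channel itself, stood nearer, at 571 against 651, 853 and 911. With plain CPM the median of this list was 0.14 while that of all genes was 0.89, so the direction holds relative to the other genes only.

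The largest differences the other way were in the angiogenin family, small secreted ribonucleases of which several act against bacteria. *Ang4* stood at 3505 scaled CPM in castrated cells and at 0, 3.25 and 0 in the intact pools of runs 1, 2 and 3. *Ang5* stood at 3283 against 0, 1.95 and 0, and *Ang2* at 249 against 0, 0.488 and 0.164. The 3 genes together made up 1.11% of all castrated UMIs. Within run 2, the ratio was 1077 for *Ang4* (counting interval 697 to 1764), 1682 for *Ang5* (962 to 3255) and 510 for *Ang2* (174 to 2475, on 3 intact UMIs). The family member *Ang*, angiogenin itself, stood at 6.10 against 5.53, 1.46 and 0.657, within 2-fold of run 1, and *Ang6* had 8 UMIs in the castrated pool. Counts can be lost or shifted among angiogenin genes because their sequences are alike, so their sum is firmer than any 1 of them.

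*Ang4* and *Ang5* were both higher in castrated cells and their starts resemble each other, which is why both start regions are printed, from 250 bases before to 50 bases after the RefSeq start on GRCm38.p6. The window of *Ang4* is chr14:51773541-51773840 on the minus strand and that of *Ang5* is chr14:43956819-43957118 on the plus strand, and capitals mark TGTGGT, the core that Runx proteins bind:
Ang4: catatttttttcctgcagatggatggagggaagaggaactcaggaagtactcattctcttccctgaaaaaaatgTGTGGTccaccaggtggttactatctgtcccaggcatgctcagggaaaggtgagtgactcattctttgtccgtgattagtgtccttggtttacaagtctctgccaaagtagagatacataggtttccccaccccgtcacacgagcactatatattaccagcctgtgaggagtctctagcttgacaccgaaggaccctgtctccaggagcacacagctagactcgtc
Ang5: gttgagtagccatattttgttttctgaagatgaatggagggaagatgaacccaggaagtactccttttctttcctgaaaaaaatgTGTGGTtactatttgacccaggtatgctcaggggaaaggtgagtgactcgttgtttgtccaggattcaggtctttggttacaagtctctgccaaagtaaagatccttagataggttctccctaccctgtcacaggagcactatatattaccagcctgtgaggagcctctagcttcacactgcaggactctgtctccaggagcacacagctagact
Aligned end to end, 80.1% of the 317 positions of the alignment were identical. TGTGGT or its reverse complement ACCACA occurred 1 time in each window, and in 16.8% of the 32851 windows of this length in the RefSeq table. The steroid receptor half-site AGAACA, or TGTTCT on the other strand, was searched in the same way; 19.0% of all windows hold it, and neither of these does. Such matches describe the letters of the window and not a site in use.

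Angiogenin transcripts were spread unevenly over the castrated cells. *Ang2*, *Ang4* and *Ang5* together reached 10 UMIs per 10,000 in 67 of 176 cells (38.1%, exact interval 30.9% to 45.7%), a limit set after the values were seen. The level over these 67 cells had a median of 115 per 10,000, 41 cells passed 100 and the highest stood at 1550, while 78 cells had no UMI of the 3 genes and 8 cells lay between 5 and 20. No intact cell of run 2 exceeded 1.98 and no Ptprc-bearing cell 4.02. *Ang4* was detected in 51.1% of castrated cells, 12% of intact cells and 4.49% of Ptprc-bearing cells, and after thinning to 4000 UMIs in 44.7%, 0% and 1.46%.

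In the other castrated pools of run 2 the limit was passed by 9 of 187 RFP+ luminal cells of the dorsolateral lobe (4.81%, 2.22% to 8.94%), and by 3 of 253 of the anterior lobe (AP) (1.19%, 0.245% to 3.43%). Among RFP- luminal cells it was passed by 3 of 39 of the dorsolateral lobe (7.69%, 1.61% to 20.9%), 1 of 71 of the AP and 1 of 17 of the VP. The interval of the VP RFP- pool, with 17 cells, was 0.149% to 28.7%. These intervals cover counting error within 1 pool each, and no difference between the pools was tested. Among the intact pools of the 3 runs, 3 had 1 cell over the limit each and the others none. In run 1, where RFP+ cells of all castrated lobes carried 1 barcode, 2 of 27 luminal cells passed it.

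**Figure D3:**
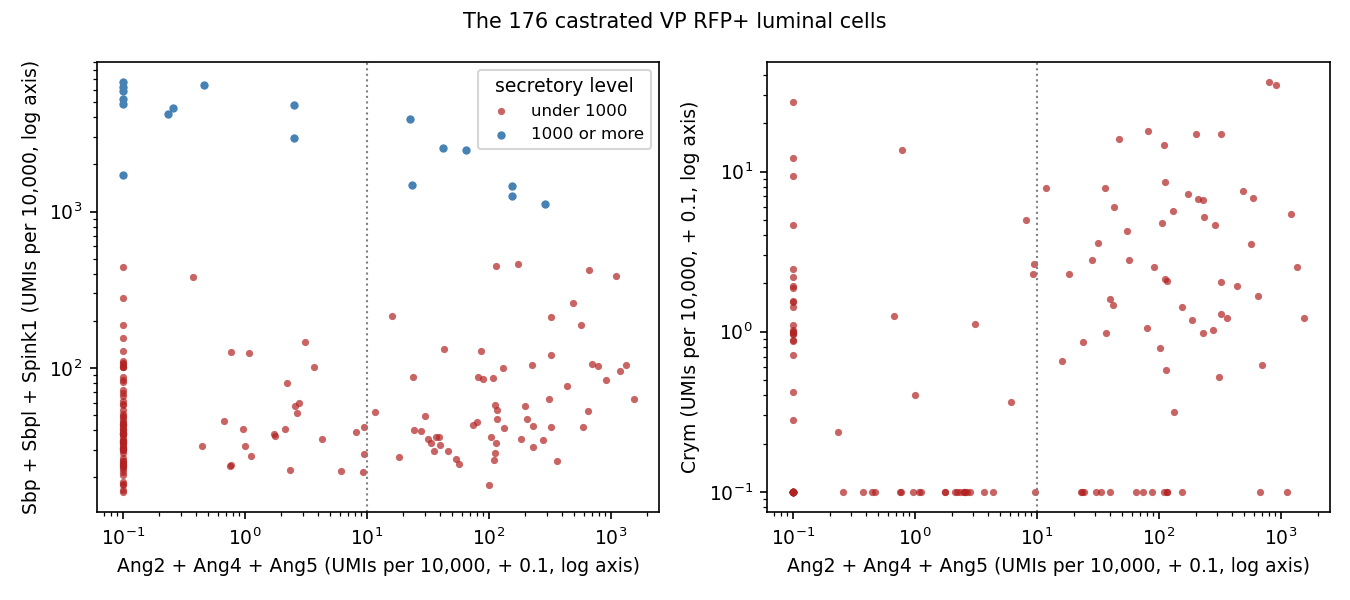
Each point is 1 of the 176 castrated VP RFP+ luminal cells, placed by its *Ang2*, *Ang4* and *Ang5* UMIs per 10,000 plus 0.1 (horizontal log axis) and by *Sbp*, *Sbpl* and *Spink1* UMIs per 10,000 (left) or *Crym* UMIs per 10,000 plus 0.1 (right), on log axes. The dotted line marks 10 per 10,000, passed by 67 cells, 7 of them among the 18 cells of high secretory level in blue.

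Several other genes differed between the castrated cells above and below that limit. The values that follow describe cells of 1 pool, per 10,000 UMIs without the 3 secretory genes, and median depths were 18005 UMIs above and 11189 below. *Crym* stood at 4.08 in the 67 cells and at 1.07 in the other 109, and *Ncam1*, a cell adhesion molecule, at 0.289 and 0.0636. Metallothionein *Mt1* stood at 28.4 and 13.7. The opposite order was found for *Basp1* (0.147 and 1.51), *Clu* (1.31 and 11.6) and *Cxcl5* (0.797 and 3.94). For *Clu*, 1 cell gave 47.8% of the castrated UMIs, and for *Basp1*, 5 cells gave 53.8%. *Cxcl5* was detected in 40.3% of cells above the limit and 42.2% of those below. *Car2* (16.7 and 16.1), *Gas6* (3.32 and 3.48) and *Fabp5* (15.5 and 17.9) differed by less than 1.5-fold between both sides of the limit.

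*Crym*, which encodes a cytosolic protein that binds thyroid hormone, stood out next by its ratio, after *Cxcl5*. Its level was 150 scaled CPM in castrated cells and 0.582, 0.976 and 0.821 in the intact pools, a ratio of 154 in run 2 (70.3 to 420, on 860 and 6 UMIs). UMIs of *Crym* were found in 83 of 176 castrated cells (47.2%, 39.6% to 54.8%), in 4.00% of intact cells and in 0.749% of Ptprc-bearing cells. After thinning the shares were 29.4%, 0% and 0%. The other named marker genes of castrated luminal cells in the study were higher too, which is not independent of these data, because the study chose them on cells that include these. *Lpl*, lipoprotein lipase, stood at 36.6 against 1.16, 2.28 and 0.986, and *Basp1*, a membrane-bound signalling protein, at 45.7 against 0.873, 5.69 and 0.986. Both were found in many Ptprc-bearing cells (22.5% and 65.5%), while 39.8% and 21.6% of castrated cells held a UMI.

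*Cxcl5*, a chemokine that attracts neutrophils, had 754 UMIs in castrated cells (131 scaled CPM) and 0 in all 3 intact pools. Set against a floor of 3 UMIs in the intact pool of run 2, it was at least 269-fold higher. A UMI was found in 73 castrated cells (41.5%), in 0 of 150 intact cells, which allows a share of up to 2.43% by the exact interval, and in 0.375% of Ptprc-bearing cells. *Cxcl15* and *Cxcl1*, chemokines of the same family, stood at 53.3 against 14.3, 1.63 and 4.44, and at 52.3 against 14.3, 15.1 and 25.6. All 3 lay above every intact pool by at least 2-fold. Of 10 tested epithelial defense genes 6 were higher in run 2, 3 above all intact pools, and 1, the acute phase gene *Saa1*, was lower.

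*Car2*, carbonic anhydrase 2, was higher across most of the castrated cells, with a UMI in 88.6% of castrated cells, 16% of intact cells and 5.99% of Ptprc-bearing cells (83.5%, 4.73% and 1.94% after thinning). It stood at 933 scaled CPM against 6.69, 19.2 and 2.79, a ratio of 48.6 (40.5 to 58.8). *Gas6*, a ligand of the TAM receptor kinases, stood at 193 against 18.0, 16.6 and 6.90, with a UMI in 91.5% and 24.0% of cells. *Fabp5*, which carries fatty acids, stood at 949 against 59.7, 77.1 and 78.2. *Sprr1a*, a cornified envelope protein, stood at 262 against 1.46, 30.4 and 14.1. The transcription factors *Nr4a2* (122.5 against 22.99, 12.7 and 14.8) and *Foxq1* (112 against 6.69, 15.1 and 18.2) and the membrane protein gene *Tmem45a* (140 against 46.6, 22.8 and 24.3) completed the 12 highest.

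**Figure D4:**
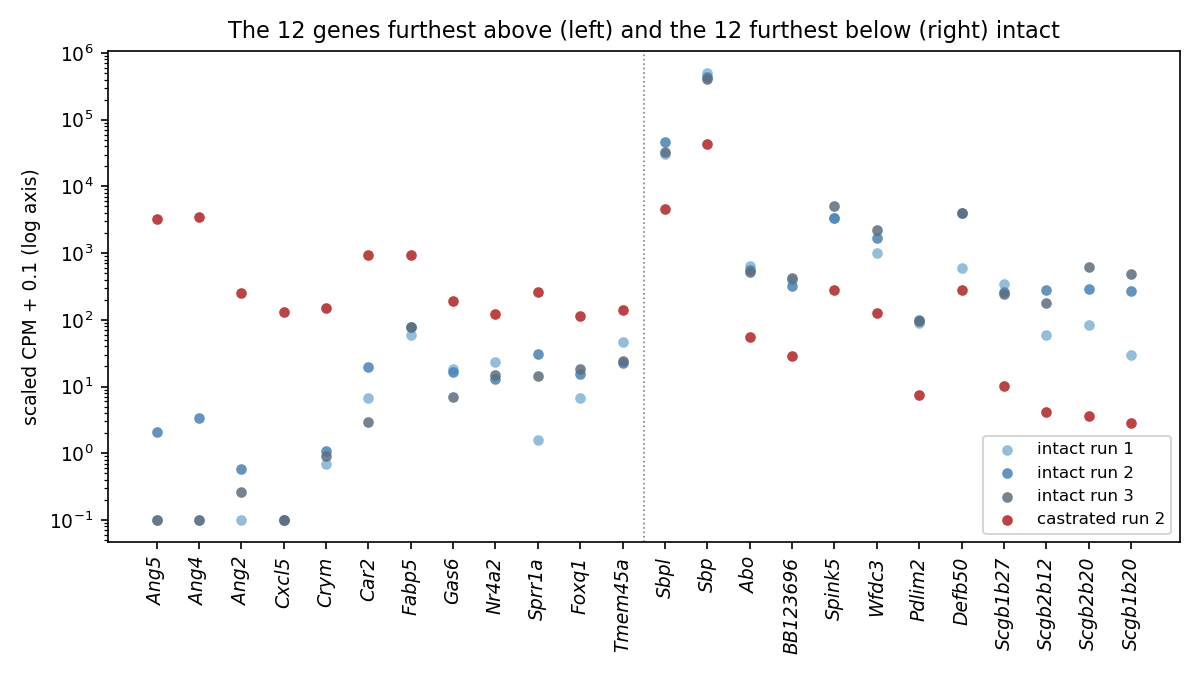
Scaled CPM plus 0.1 (vertical log axis) of the 12 genes with the largest and the 12 with the smallest ratio among genes that reached 100 scaled CPM in either run 2 pool and lay at least 2-fold outside all 3 intact pools. Red points are the castrated pool and blue to grey points the intact pools of runs 1 to 3. By the choice of genes, the castrated point is separate from the 3 intact points in each.

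Among steroid receptors of low level, *Esr1*, the estrogen receptor alpha gene, stood at 8.54 against 3.49, 2.60 and 2.79 and *Nr3c2*, the mineralocorticoid receptor gene, at 7.84 against 2.91, 3.42 and 2.96. Both lay above all intact pools by at least 2-fold. Steroid converting enzymes were nearly level, such as *Hsd17b10* at 87.9 against 101, 87.7 and 91.2 and *Hsd17b12* at 31.4 against 32.3, 30.6 and 34.7.

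Genes known to respond to androgen differed in both directions. Of 22 tested, 5 were at least 2-fold lower and 4 higher, 3 lay below and 3 above all intact pools, and the median log2 ratio was -0.26. *Fkbp5*, a co-chaperone and a standard androgen target, stood at 11.3 against 48.6, 62.6 and 63.2, and *Eaf2* at 5.58 against 14.8, 15.9 and 15.6. In contrast, *Sord*, sorbitol dehydrogenase, stood at 40.3 against 9.60, 10.2 and 8.21. *Acsl3*, a fatty acid ligase, stood at 158 against 20.4, 34.0 and 50.8, and *Pmepa1* at 27.9 against 0.582, 5.37 and 0.821. *Mme* (neprilysin), a cell surface peptidase, stood at 257 against 246, 392 and 317, among the intact pools. Equal weight for each cell gave a list median of 0.004409, so the list had no firm direction.

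Transcription factors of the luminal lineage went both ways. *Hoxb13*, a homeobox factor of the prostate, stood at 219 against 508, 501 and 551, below all intact pools by 2-fold. *Runx1* itself stood at 61.4 against 15.1, 15.1 and 28.4, although both pools were sorted on the reporter of its P2 promoter. *Gata3* (57.2 against 20.1, 18.1 and 18.7), *Gata2* (14.1 against 2.91, 3.74 and 1.31) and *Sox4* (23.4 against 2.62, 5.69 and 3.45) also lay above all intact pools. The epithelial factor *Ehf* was level, at 211 against 196, 213 and 237, and *Klf5*, a zinc finger factor of epithelia, stood at 119 against 57.3, 57.9 and 71.5. *Xbp1*, a regulator of secretory capacity, stood at 82.6 against 118, 149.5 and 126, lower than each intact pool by less than 2-fold. Of 17 tested, 5 were at least 2-fold higher and 2 lower, with 4 above and 1 below all intact pools.

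Genes that mark proximal luminal cells gave a mixed result once the other intact pools were considered. In run 2, 11 of 18 tested were at least 2-fold higher and 3 lower, with a median log2 ratio of 1.38, but only 3 lay above and 2 below all intact pools. *Krt4*, a keratin of that region, stood at 15.2 against 21.8, 4.39 and 5.91, and *Psca*, a surface antigen of the same cells, at 34.5 against 307, 77.1 and 63.4. *Clu*, clusterin, stood at 356 against 235, 134 and 206. Cells with at least 2 *Psca* and *Krt4* UMIs per 10,000 made up 6.82% of castrated cells and 20.6%, 4.67% and 5.10% of the intact pools, so the intact pool of run 1 was richest in them. *Krt7* (8.19 against 73.0, 16.4 and 52.2) and the retinaldehyde dehydrogenase gene *Aldh1a1* (11.9 against 55.6, 65.7 and 61.9) lay below all intact pools. The surface protein *Ly6e* stood at 312 against 190.3, 113 and 76.9, and the stress-response gene *Nupr1* at 1308 against 3014, 1806 and 2884, lower than each intact pool. With the study's own barcode thresholds, the median of the list turned to -0.29 and that of *Clu* to -0.29.

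Immediate early genes, which respond within minutes to signals, were mostly higher in castrated cells. Of 22 tested, 13 were at least 2-fold higher and 0 lower, 6 lay above all intact pools, and the median log2 ratio was 1.17. *Nr4a1*, an orphan nuclear receptor, stood at 310 against 73.9, 54.5 and 61.3. *Egr3*, a zinc finger factor, stood at 33.8 against 1.46, 2.77 and 3.61, while *Jun* stood at 964 against 823, 802 and 1192 and *Atf3* at 2138 against 962, 1385 and 2004. *Junb* stood at 1030 against 637, 475 and 718. Heat shock genes had a median of 0.59, with 1 of 12 at least 2-fold higher (*Hspa1a*) and 0 outside all intact pools. The chaperone *Hspa8* stood at 1256 against 634, 843 and 1053, above each intact pool by less than 2-fold. These genes also respond to tissue dissociation, and the part of handling was not tested.

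Genes linked to regression of the gland were often higher in run 2. Of 17 tested, 8 were at least 2-fold higher and 0 lower, 4 lay above all intact pools, and the median log2 ratio was 0.97. *Tgm2*, tissue transglutaminase, stood at 22.3 against 2.62, 0.813 and 1.97. *Tgfb2*, a ligand of the TGF-beta receptors, stood at 30.0 against 7.86, 6.83 and 7.88, and *Lgals3*, galectin-3, at 122 against 50.3, 43.3 and 40.1. The lysosomal proteases *Ctsl* (208 against 187, 177 and 249) and *Ctsd* (169 against 176, 119.7 and 111) were within 2-fold of all intact pools. Among 20 apoptosis regulators 3 were higher and 1 lower, shares not far from the 9.18% and 8.45% of all genes at this number of members. *Bax*, a core effector of cell death, stood at 57.9 against 81.2, 94.8 and 67.8. The members above all intact pools were *Bcl2l11* (BIM) at 19.2 against 3.78, 5.21 and 5.26 and *Pmaip1* (NOXA) at 3.84 against 0.291, 0.651 and 0.329.

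A part of the interferon response genes stood lower. Of 16 tested, 6 were at least 2-fold lower, all 6 below every intact pool, and 1 was higher, with a median log2 ratio of -0.59. *Ifit1*, an antiviral RNA-binding protein, stood at 5.23 against 92.5, 29.8 and 55.2, and *Isg15*, a ubiquitin-like protein, at 7.50 against 38.7, 32.4 and 80.7. *Ifitm3*, another antiviral protein, stood at 135 against 244, 140.4 and 313, close to run 2. Of 17 MHC class I genes only *B2m* lay below all intact pools, at 310 against 867, 872 and 1574. The heavy chain gene *H2-K1* stood at 375 against 487, 439.9 and 693 and *H2-D1* at 639 against 859, 699 and 893, though these paralogs may share reads. Class II genes, of antigen-presenting cells, were higher in 3 of 6, but 1 castrated cell gave 80.9% of the *Cd74*, 85.5% of the *H2-Aa* and 78.8% of the *H2-Ab1* UMIs.

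Metabolic lists had medians between -0.16 and 0.33, with single genes far outside. Most had few calls, to be read beside the 9.18% higher and 8.45% lower over all genes tested. *Srm*, spermidine synthase, stood at 26.5 against 141, 119 and 98.2, while *Azin1*, which protects ornithine decarboxylase, stood at 197 against 66.4, 81.3 and 84.3. *Oaz1*, the antizyme that inhibits that enzyme, was close to level at 636 against 562, 543 and 566. Of 11 polyamine genes, 3 were higher and 2 lower, with 1 above and 1 below all intact pools. Among 26 glutathione and redox genes 7 were higher and 1 lower, with *Gstm1* at 180 against 68.1, 50.6 and 59.0 and the secreted peroxidase *Gpx3* at 11.2 against 80.6, 77.1 and 192. *Gpx4* (293 against 291, 295 and 289) and *Prdx1* (518 against 510.5, 518 and 482), peroxidases of all cells, were level. Among 21 genes of fatty acid metabolism 2 were higher (*Fabp5* and *Lpl*) and 4 lower, with the desaturase *Scd1* at 12.03 against 41.0, 48.6 and 40.9. *Hadhb* of mitochondrial beta-oxidation was level, at 52.8 against 60.2, 56.3 and 53.9. Cholesterol genes had 1 higher and 1 lower of 22, and zinc and citrate genes 2 higher and 0 lower of 20, neither of them outside all intact pools. The metallothionein gene *Mt1*, which binds zinc, stood at 1213 against 453, 857 and 715. The integrated stress response had 2 higher and 3 lower of 17, with *Phgdh* of serine synthesis at 64.1 against 185, 190 and 189.

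Proliferation genes were 2-fold lower in 15 of 19 members in run 2, with a median log2 ratio of -2.90, yet only *Cdk1* and *Rrm2* lay below all intact pools. The summed level of the list was 35.6 scaled CPM in castrated cells, 235 in the intact pool of run 2, and 40.5 and 82.0 in runs 1 and 3. *Top2a*, a topoisomerase of dividing cells, stood at 4.53 against 6.98, 30.4 and 10.2, and *Cenpf* of the kinetochore at 0.174 against 0.291, 24.9 and 13.3. The intact pool of run 2 stood apart from the others here, and the castrated pool was close to run 1.

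**Figure D5:**
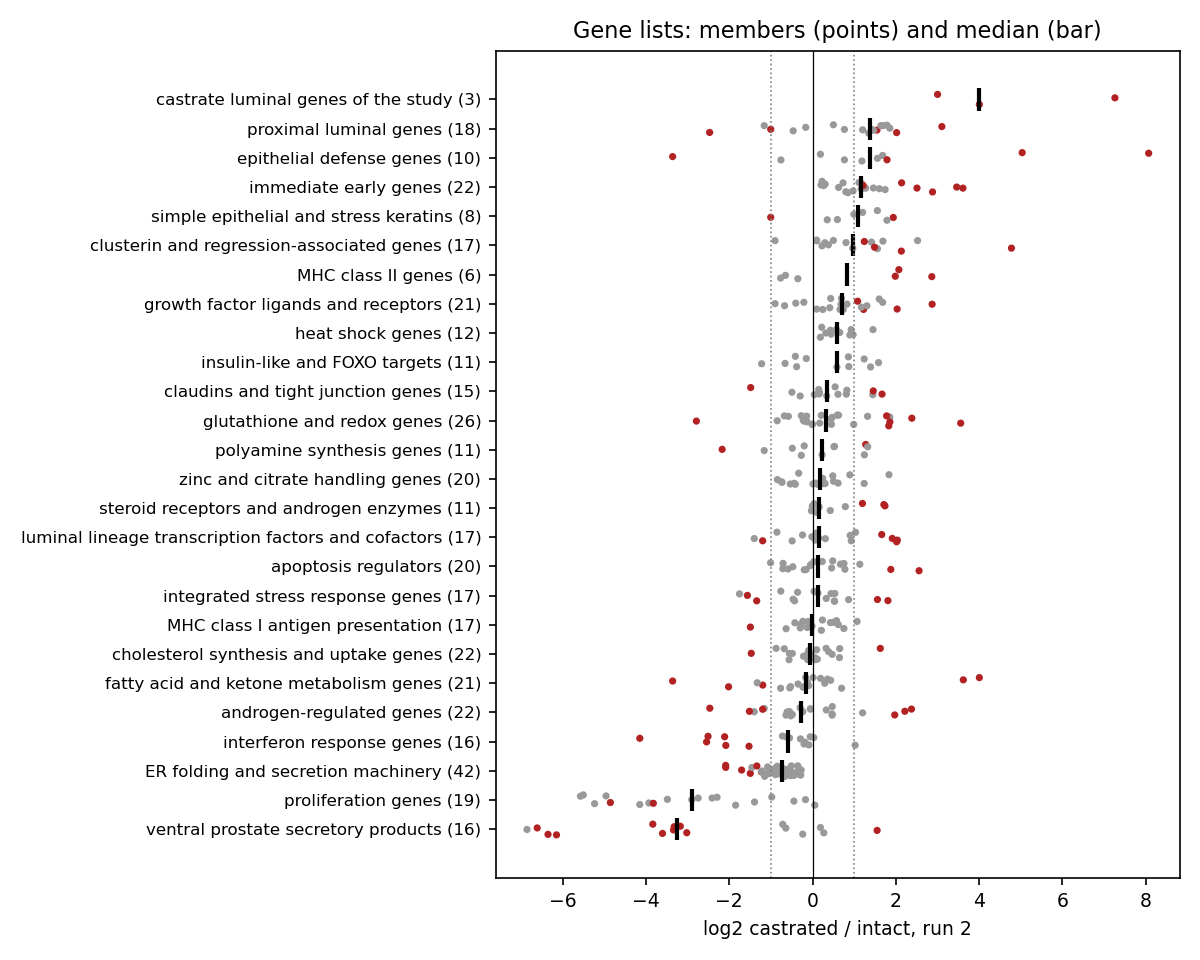
Log2 ratio of castrated to intact cells in run 2 (horizontal axis) for the tested members of 26 gene lists (rows, number tested in brackets). Points are genes, red where at least 2-fold outside all 3 intact pools, black bars are medians and dotted lines mark 2-fold; VP secretory products have the lowest median (-3.25), followed by proliferation genes (-2.90), most of which are grey.

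Only a part of the structural genes of the epithelium differed, where 9.18% of all genes tested were higher and 8.45% lower. Of 8 keratins tested, 4 were at least 2-fold higher and 1 lower, and *Krt23* was the one above all intact pools, at 59.3 against 12.2, 15.5 and 7.06. *Krt19* stood at 973 against 555, 422 and 401, higher than each intact pool but within 2-fold of run 1. Among 15 claudin and junction genes 3 were higher and 1 lower, with *Cgn* (cingulin) at 49.7 against 17.5, 15.6 and 15.6. *Cldn3* (421 against 463, 377 and 407) and *Cldn10* (205 against 163, 199 and 128) were within 2-fold of all intact pools. Growth factor genes had 8 higher and 0 lower of 21, with 4 above all intact pools. Among the higher genes were the EGF receptor ligand *Areg* (7.15 against 0.582, 0.976 and 0.329) and the receptor *Fgfr2* (14.6 against 2.62, 3.58 and 2.63). *Igf1r*, the receptor of insulin-like growth factor, stood at 31.4 against 16.3, 19.8 and 16.9, above each intact pool by less than 2-fold. The surface protein *Cd24a* stood at 278 against 93.7, 115 and 118, above all intact pools. *Dpp4* (32.2 against 9.60, 13.5 and 16.8) was higher than each but within 2-fold of run 3, and *Tspan1* (1021 against 1072, 735 and 755) was not. Insulin and FOXO genes had 3 higher and 1 lower of 11, none outside all intact pools.

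Markers of other cell types were low, and those given as 0 had no UMI in castrated cells. The 12 blood cell markers summed to 31.4 scaled CPM in castrated cells and 5.09 to 8.30 in intact pools, all 4 tested members were higher, and *Nkg7* was at 0. Endothelial markers summed to 6.28 against 2.04 to 5.04, with *Cdh5*, *Kdr*, *Plvap* and *Tie1* at 0, and stromal markers to 33.3 against 32.9 to 34.3, with *Col1a1*, *Col1a2*, *Lum*, *Pdgfra* and *Myh11* at 0. The matrix gene *Dcn* made up most of the stromal sum, at 29.3 against 32.9, 30.4 and 34.0. Basal markers summed to 165 against 78.7 to 194. Of 7 tested, 2 were higher and 1 lower, and only *Itga6* lay above all intact pools, at 48.5 against 7.57, 11.2 and 13.5. The 2 tested neuroendocrine markers were higher and lay above all intact pools. *Chga*, a neuroendocrine granule protein, was higher through 1 cell that held 98.2% of its 114 UMIs, with *Chgb* and *Syp* at 0. *Ncam1*, the other, had 59 UMIs in the castrated pool, with a UMI in 17.0% of castrated and 2% of intact cells of run 2. Urothelial markers summed to 150 against 107 to 125, and seminal vesicle markers to 7.84 against 7.56 to 11.4. Of 3 tested urothelial markers, 2 were higher, with 1 above all intact pools. Of the uroplakins, *Upk1a* stood at 94.7 against 79.5, 97.8 and 117. *Upk3a* stood at 5.58 against 0, 0 and 0, with 93.8% of its 32 UMIs in 1 castrated cell. *Upk1b*, also higher, was spread over more cells. It had 279 UMIs in the castrated pool, with a UMI in 58.0% of castrated and 18% of intact cells of run 2. The part of blood cell transcripts in the class II values was not tested.

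Castration differences of the AP in run 2 are set beside those of the VP, each scaled within its own 2 pools. They share the run and a condition's mice were pooled, so likeness between lobes is not a replicate. AP RFP+ luminal cells (253 castrated, 123 intact) showed *Crym* at 14.6 against 0.454 scaled CPM, *Lpl* at 257 against 10.9 and *Basp1* at 455 against 71.3. RFP- luminal cells of the AP (71 and 159) showed 3.76 against 5.12, 127 against 19.95 and 233 against 191. *Ang4* stood at 125 against 4.99 in AP RFP+ cells, where 3 cells passed the angiogenin limit, and at 14.4 against 17.4 in AP RFP- cells. *Car2* stood at 335 against 174 in AP RFP+ cells and at 251 against 215 in AP RFP- cells. The folding and export genes had a median log2 ratio of -0.17 in AP RFP+ and -0.92 in AP RFP- cells, and proximal luminal genes of -1.48 and 0.18. Over all genes, 7.54% were at least 2-fold higher and 7.37% lower in AP RFP+ cells, and 6.44% and 9.39% in AP RFP- cells. Of the 867 genes higher in the VP and tested in AP RFP+ cells, 219 (25.3%) were also higher there and 72 (8.3%) lower, and of 636 lower genes 172 (27%) were lower and 28 (4.4%) higher. In AP RFP- cells, 230 of 722 (31.9%) were also higher and 55 (7.62%) lower, and 133 of 613 (21.7%) were lower and 52 (8.48%) higher. No difference between lobes was tested.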

How the data were processed

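Single-cell libraries of sorted EPCAM+ cells were made with 10x Genomics 3′ v3 chemistry, with MULTI-seq barcodes for the sorted populations. The authors aligned reads to mm10 with Cell Ranger 3.1.0 and deposited UMI counts per gene and cell for 31053 genes, and UMI counts of each MULTI-seq barcode per cell. Cells with 750 to 7500 genes and under 10% mitochondrial UMIs were kept. Barcode counts were divided by the median of each barcode in the run, skipping barcodes with a median of 0, which left the intact dorsolateral RFP+ cells of runs 1 and 2 unlabelled. A cell needed a top ratio of 3 and 2 times the second. No doublet caller was used, so doublets within a population remain. Luminal cells and the Ptprc-bearing cells, a reading of free RNA, were defined as given above.

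UMIs were summed per population and scaled with TMM in edgeR 4.0.16 (R 4.3.3) over the castrated pool and the 3 intact pools. Genes with at least 20 UMIs in both run 2 pools together were compared. With 1 castrated pool there was no test. A gene was called at 2-fold, and called outside the intact pools where castrated cells were 2-fold past all 3 of them. Counts under 3 were set to 3 UMIs per pool in ratios. Intervals are exact 95% intervals (conditional binomial for ratios, Clopper-Pearson for shares) and cover counting error only. For shares of cells, cells were also thinned to 4000 total UMIs, which does not equalize the depth of genes other than the secretory ones, and which left out 6 castrated and 2 intact cells of run 2. Named genes were the 12 highest and 12 lowest ratios among genes reaching 100 scaled CPM and lying outside all intact pools, up to 4 examples per gene list, and genes the study names. The rule took the list members with the most UMIs. Further list members named in the text were chosen after their values were seen, most of them because they lay outside all 3 intact pools, and so were *Ang* and *Ang6*. The members, the gene lists and the limits of 10 and 1000 per 10,000 were chosen with earlier results of these data known. Promoter sequences are from RefSeq on GRCm38.p6, matched by symbol, and were aligned with Biopython 1.88. The steps were tested on simulated data. Some genes measured in these cells are not reported here.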

Additional observations from a re-analysis of the deposited data

Results flagged for a closer look

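In 5 of the 146 genes named by rule, the castrated and intact cells differed 2-fold or more in opposite directions in VP RFP+ and AP RFP+ luminal cells of run 2, with 1 pool per group, and the difference between lobes was not tested. Over all 9427 genes tested in both, 72 were higher in the VP and lower in the AP, and 28 the reverse. *Krt4* had a log2 ratio of 1.79 in the VP and -3.63 in the AP, and *Krt15* of 1.56 and -3.69. Both keratins also varied among intact VP pools. *Lgals3* (galectin-3) had log2 ratios of 1.49 and -1.29. The T cell gene *Cd3e* had 3.27 and -1.57, and the leukocyte gene *Cd52* had 2.06 and -1.05, both at low counts in the VP. For *Cd52*, 5 castrated VP cells gave 84.9% of the UMIs of their pool.

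The castrated RFP+ pool of run 1, in which all lobes shared 1 barcode, was used above only for its angiogenin count. It held 27 luminal cells. Of the 12 genes highest in castrated VP cells of run 2, 8 had more than 3 UMIs in it and passed a 2-fold limit. In plain CPM these 8 were at least 2-fold above the highest of the 5 intact pools of run 1. The share of all genes that pass the same limits was not measured, so this count has no background to be read against. Only 2 of the 27 cells passed the angiogenin limit, the pool held 424 UMIs of the 3 angiogenin genes, and *Crym* had 21 UMIs. *Ang5* stood at 520.7 against a highest intact value of 9.24, *Ang4* at 412.2 against 5.77, *Crym* at 46.5 against 3.79 and *Cxcl5* at 68.7 against 0. *Car2* stood at 529.6 against 241, *Gas6* at 797.7 against 288, *Nr4a2* at 137.4 against 64.9 and *Tmem45a* at 339 against 122. Of the others, *Ang2* had 3 UMIs (6.65 against 0.324), *Foxq1* stood at 334.6 against 207.9, *Sprr1a* at 305.8 against 575.6, and *Fabp5* at 33.2, below all intact pools of run 1 (47.0 to 577.2). The lobes in that pool are unknown, so these values cannot be assigned to VP cells.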

How the results depend on the processing

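No paired analysis was possible because the castrated condition had 1 pool. Plain CPM moved the median log2 ratio of all genes to 0.89 and UMIs per cell to -0.31, against 0.02 as reported, so directions hold relative to the other genes. The counts are given in the order of genes 2-fold higher, 2-fold lower, above all intact pools and below all intact pools. They were 912, 840, 465 and 424 as reported, 4236, 274, 2801 and 119 with plain CPM, and 549, 1524, 259 and 805 with UMIs per cell. A minimum of 100 UMIs gave 421, 344, 240 and 202, a fold of 1.5 gave 2020, 1799, 1061 and 979, and a fold of 4 gave 205, 233, 108 and 105. Keeping cells under 7500 UMIs left 28 castrated and 5 intact cells of run 2 and gave 315, 38, 130 and 8. After thinning to 4000 UMIs, 337 genes were lower, 220 above and 154 below all intact pools, with fewer genes testable. Leaving out 1 intact pool gave 580 to 618 genes above and 520 to 554 below the others.

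The median log2 ratio of the secretory products was -3.25 as reported, -2.38 with plain CPM, -4.13 with equal weight per cell, -4.06 thinned, -2.76 with a top barcode 5 times the second, -4.60 under 7500 UMIs and -3.80 without the top 5% of cells by UMIs. Androgen-regulated genes had -0.26 as reported and 0.61, -0.60, 0.004409, 0.53 and 1.46 with plain CPM, UMIs per cell, equal weight, thinning and cells under 7500 UMIs. Folding and export genes had -0.73 as reported and 0.14, -1.06 and -0.13 with plain CPM, UMIs per cell and cells under 7500 UMIs. Proximal luminal genes (-0.29), *Clu* (-0.29) and *Upk3a* (-3.59) changed sign with the study's barcode thresholds. *Psca* did so with a top barcode 5 times the second (0.14) and without *Psca*+*Krt4* cells (0.77). *Hoxb13* (0.28), *Hspa5* (0.31) and *Krt15* (-1.26) did so under 7500 UMIs. The causes were not tested. Of named-gene ratios, 1342 moved by less than the spread between intact pools, 453 by more and 7 changed sign. A castrated pool of 176 cells and 1 reaction limits all of these values.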
